A study of Mus musculus with 2 samples.

Results

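The 32 genes described here are genes of the cell division cycle, taken by name from 3 cluster tables of salivary gland stroma: 11 act in DNA replication, 18 in mitosis, and 3 (Hmgb2, H2afz and Stmn1) are chromatin and cytoskeleton genes placed in neither set. All 32 were listed in the control table, 30 in the FGF2 table and 31 in a table of both libraries after integration, among 5238 genes in any table. The data were single-cell RNA sequencing of organoids, small tissue-like aggregates in culture, made from salivary glands of CD-1 mice, an outbred stock. Both groups carry the age label of embryonic day 16 with 7 added, whose unit is not given, and they differ in the labels by FGF2, a fibroblast growth factor. There was 1 control library, with 5023 cells captured per the labels, and 1 FGF2 library with 10107, and the dose, the timing and the number of animals are not stated in the labels.

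Cells copy their DNA in S phase and divide in mitosis, and different genes are transcribed for each step. Replication genes are switched on by E2F factors before S phase, whereas most mitotic genes peak later, in G2 and mitosis, through the DREAM and MuvB complexes, NF-Y and FOXM1. Stromal fibroblasts divide in growing tissue and leave the cycle as they mature, and FGF2 is known as a mitogen for them in culture.

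The promoters of a few members are shown because the members were found together in the same clusters. RefSeq promoters (build GRCm38.p6) matched 26 of the 32 members, Hist1h1b and H2afz by their newer symbols H1f5 and H2az1. Atad2, Hist1h2ap, Ccna2, Tpx2, Aurkb and Stmn1 had no entry. The 250 bases before the first listed start were searched on both strands for 3 motifs, and matches are in capitals below. The cell cycle homology region was spelled TTTGAA or TTCGAA, the E2F site TTTGGCGC, TTTCCCGC, TTTGCCGC or TTTCGCGC, and the CCAAT box CCAAT, the letters that NF-Y binds. The windows are chr10:69352913-69353162 (minus strand) for Cdk1, chr2:164769679-164769928 (plus strand) for Ube2c and chr9:70421555-70421804 (minus strand) for Ccnb2, which are mitotic, and chr1:128359706-128359955 (minus strand) for Mcm6 and chr1:20820313-20820562 (minus strand) for Mcm3, which act in replication. They were picked after their matches were seen, each 5′ to 3′ on the strand of its gene.
Cdk1: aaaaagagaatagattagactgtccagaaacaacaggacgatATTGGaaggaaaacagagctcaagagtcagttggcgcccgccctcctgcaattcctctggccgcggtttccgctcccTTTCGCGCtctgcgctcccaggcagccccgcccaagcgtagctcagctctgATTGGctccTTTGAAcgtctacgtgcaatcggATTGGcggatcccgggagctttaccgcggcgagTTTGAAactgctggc
Ube2c: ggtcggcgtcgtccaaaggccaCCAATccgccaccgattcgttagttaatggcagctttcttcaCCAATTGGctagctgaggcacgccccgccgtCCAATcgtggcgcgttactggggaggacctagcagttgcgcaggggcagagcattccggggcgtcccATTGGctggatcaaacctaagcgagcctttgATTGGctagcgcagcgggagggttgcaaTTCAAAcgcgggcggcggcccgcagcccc
Ccnb2: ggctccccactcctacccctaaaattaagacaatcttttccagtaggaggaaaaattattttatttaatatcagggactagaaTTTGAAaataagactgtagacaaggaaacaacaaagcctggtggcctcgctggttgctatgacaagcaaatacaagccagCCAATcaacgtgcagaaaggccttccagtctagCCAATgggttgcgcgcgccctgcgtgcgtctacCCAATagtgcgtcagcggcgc
Mcm6: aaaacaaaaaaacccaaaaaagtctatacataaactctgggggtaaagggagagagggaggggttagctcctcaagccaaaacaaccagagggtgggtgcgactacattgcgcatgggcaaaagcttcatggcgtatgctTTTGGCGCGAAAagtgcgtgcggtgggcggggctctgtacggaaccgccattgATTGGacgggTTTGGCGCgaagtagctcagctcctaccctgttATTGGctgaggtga
Mcm3: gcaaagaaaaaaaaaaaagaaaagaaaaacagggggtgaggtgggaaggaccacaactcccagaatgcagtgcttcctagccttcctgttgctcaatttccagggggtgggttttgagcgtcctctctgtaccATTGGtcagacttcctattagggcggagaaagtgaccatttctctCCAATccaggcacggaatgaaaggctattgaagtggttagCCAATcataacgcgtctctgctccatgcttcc
CCAAT was found in 8 of 9 replication promoters and 13 of 15 mitosis promoters, against 34.5% of all 27025 promoters of the same length. The cell cycle homology region was found in 6 of 15 mitosis promoters and 2 of 9 replication promoters, against 17.4% of all. E2F letters were found in 2 of 9 replication promoters (Mcm5 and Mcm6) and in 1 of 15 mitosis promoters (Cdk1), against 1.91% of all. In Mcm6, E2F matches on opposite strands overlap, and in Ube2c a pair of CCAAT matches does. These are matches of letters, not measured sites.

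In the tables each gene has, for each cluster where it is listed, a log ratio of its average in the cluster over that in all other cells, and the share of cells with a count in both. A gene is listed only where it differs, so a gene with no entry may still be present. Shares over a whole library, and the part of all cells in each cluster, were recovered from the listed shares. The depth per cell is unknown, so no interval is given. Each group is a single library, so differences between them have no replicates behind them and were not tested. The clusters were built from all genes, these included, so a cluster against its other cells is a description and no test.

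The members gathered in 3 clusters, control 7 and 8 and FGF2 9, called the cycling clusters here. They held 5.42% and 4.78% of control and 4.42% of FGF2 cells. Of the 32 members, 29 were listed as higher in control cluster 7, where 5.16% of the genes of the table were, and 26 in control cluster 8 (5.34%). In FGF2 cluster 9 all 30 members in that table were listed as higher (7.46%). Among the 20 genes with the largest log ratio, members numbered 14 in control cluster 7, 16 in control cluster 8 and 15 in FGF2 cluster 9. None of the fixed markers of epithelium, endothelium, Schwann cells, leukocytes, pericytes or red cells was listed as higher in these 3 clusters. Many of them had no entry in any cluster, so for these the result was fixed in advance. Listed were 0 of 4 red cell markers in either library, 0 of 5 endothelial markers in FGF2 and 0 of 4 neutrophil markers in the control. Of 6 epithelial markers, 5 were listed in the control and 4 in the FGF2 library. Of 7 fibroblast markers, Prrx1, a mesenchymal transcription factor, was listed as higher in control cluster 8, Dcn as lower there and in FGF2 cluster 9, and Lum as lower in control cluster 8. Of 5 genes that are abundant in cells of low RNA content, 4 were listed as lower in control clusters 7 and 8 and 2 in FGF2 cluster 9. Their part in the results was not tested.

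**Figure D1:**
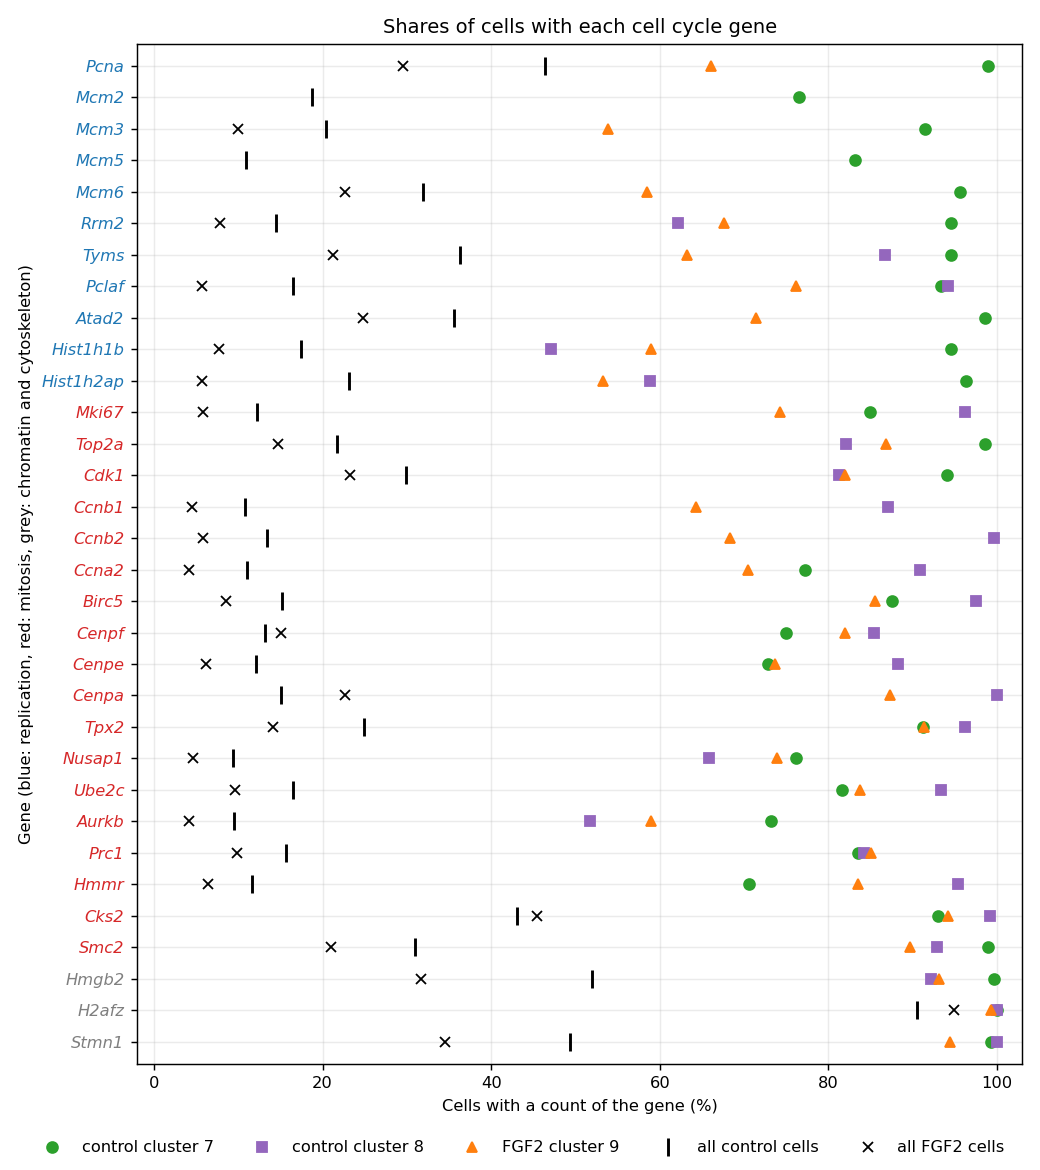
Share of cells with a count of each member (x axis, %) in the 3 cycling clusters where it is listed (coloured symbols) and over all cells of each library (black marks). Replication genes sit at 76.5% or more in control cluster 7 and at 53.3% to 76.1% in FGF2 cluster 9, and most library shares lie far to the left.

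Control cluster 7 held the replication genes. In the authors' deposited table, all 11 replication members were listed there, in a median of 94.5% of its cells against a median of 16.3% of the other cells. The sliding clamp gene Pcna was found in 98.9% of cluster 7 and 43.3% of the other cells in the authors' deposited table. The subunits of the MCM helicase, which opens DNA at origins, were found in 76.5% (Mcm2), 91.5% (Mcm3), 83.1% (Mcm5) and 95.6% (Mcm6) of cluster 7 in the authors' deposited table, against 15.5%, 16.3%, 6.8% and 28.3% of the other cells. None of these 5 genes was listed in cluster 8. Rrm2, a subunit of the enzyme that makes deoxynucleotides, was found in 94.5% of cluster 7 and 62.1% of cluster 8, and Tyms, which makes thymidylate, in 94.5% and 86.7%. Pclaf, a partner of the clamp, was in 93.4% and 94.2%, so its share was no larger in cluster 7, though its log2 ratio was (1.86 and 1.14). Atad2, a chromatin factor with a bromodomain, was listed in cluster 7 alone, at 98.5%.

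Among the 5 replication members listed in both control cycling clusters, the histone genes had the widest gaps in log ratio. The other 6 have no value in cluster 8, so their gaps are unknown. Hist1h2ap, a replication histone of the H2A type, was found in 96.3% of cluster 7 and 58.8% of cluster 8, with log2 ratios of 2.65 and 0.61. Hist1h1b, a linker histone, was found in 94.5% and 47.1%, with log2 ratios of 1.98 and 0.47. Replication histone genes are near-identical copies, so counts assigned to 1 copy are uncertain.

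Control cluster 8 held all the mitotic genes. In the authors' deposited table, all 18 mitosis members were listed there, in 51.7% to 100% of its cells. The B-type cyclins Ccnb1 (87.1%) and Ccnb2 (99.6%), which activate CDK1 for mitosis, and Cenpa (100%), the histone of the centromere, were listed in cluster 8 and not in 7. The other 15 mitosis members were listed in both. Cenpf, a kinetochore protein, had log2 ratios of 0.61 in cluster 7 and 2.50 in cluster 8, the widest gap among them. Cenpe, the kinetochore motor, had 0.54 and 2.01, Hmmr, which acts on spindle microtubules, 0.58 and 2.03, and Ube2c, an enzyme of the complex that destroys cyclins, 0.76 and 2.13. Hmmr was found in 70.6% of cluster 7 and 95.4% of cluster 8, and Mki67, the source of the Ki-67 antigen, in 84.9% and 96.2%.

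A few mitosis members had the larger share in cluster 7. Top2a, which untangles DNA, was found in 98.5% of cluster 7 and 82.1% of cluster 8, with close log2 ratios of 1.94 and 2.04. Aurkb, a kinase of the chromosomal passenger complex, was found in 73.2% and 51.7%, and was the 1 mitosis member with the larger log2 ratio in cluster 7 (0.67 and 0.60). Cdk1, Nusap1 and Smc2 also had the larger share in cluster 7 (94.1% and 81.2%, 76.1% and 65.8%, 98.9% and 92.9%). By share or by being listed in 1 cluster alone, 10 of 11 replication members went with cluster 7 and 13 of 18 mitosis members with cluster 8. By log ratio the counts were 11 and 17. Of all 343 genes listed as higher in either cluster, 172 went with cluster 7 and 161 with cluster 8 by share, and 143 and 200 by log ratio.

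**Figure D2:**
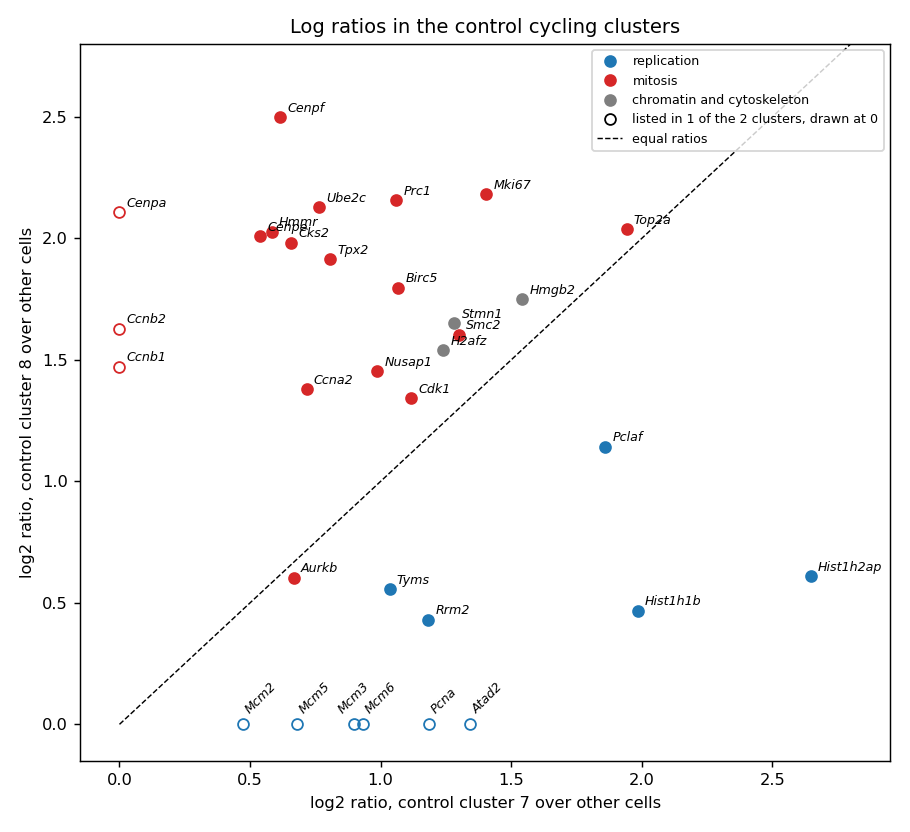
Log2 ratio of each member in control cluster 7 (x axis) and control cluster 8 (y axis), coloured by role, with open circles at 0 for genes listed in 1 of the clusters alone. Replication genes lie below the line of equal ratios and mitosis genes above it, except Aurkb, at 0.67 and 0.60.

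Hmgb2, a chromatin protein, H2afz, the gene of the histone variant H2A.Z, and Stmn1, which takes microtubules apart, were high in both control clusters. In the authors' deposited table, Hmgb2 was found in 99.6% and 92.1% of the cells of clusters 7 and 8, H2afz in 100% of both and Stmn1 in 99.3% and 100%. They were also common elsewhere, in 49.2%, 90% and 46.5% of the cells outside cluster 7.

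Outside clusters 7 and 8, 10 of the 32 members were listed in the control table, in 39 entries, and the other 22 in no further cluster. Of these entries 27 were lower and 12 higher by log ratio. Control clusters 0, 1, 2 and 3 had 7, 7, 5 and 3 members listed, all lower by log ratio. In control cluster 1, led by Crabp1 and Mmp3, Stmn1 was found in 32.2% of its cells against 52.3% of the others in the authors' deposited table, Tpx2, which builds the spindle, in 11.7% against 27.2%, and Smc2, a subunit of condensin, in 19.6% against 32.9%. In control cluster 2, led by Spp1 and Cxcl13, Hist1h2ap was found in 9.7% against 25.3%.

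In 13 of the 39 entries the log ratio and the share pointed opposite ways, and 5 of these lay in control clusters 0 to 3. In control cluster 0, led by Fbn2 and Vegfd, Stmn1 had a lower log ratio but a larger share (60.5% against 47.1% in the authors' deposited table). H2afz in clusters 0, 1 and 3 and Cks2 in cluster 3 were the others there. In control cluster 4, led by AY036118 and Gm42418, Cks2, a small partner of CDK1, had a log2 ratio of 0.70 but was found in 15.4% of the cells against 46.4% of the others in the authors' deposited table. Hmgb2 (15.3% against 56.2%) and Stmn1 (15.4% against 53.4%) behaved alike there. The genes listed for this cluster had a median share of 10.9% in it and 84.8% in the other cells. Control cluster 5, led by Acta2 and Actg2, had a lower log ratio but a larger share of Cks2 (65.0% against 40.9%) and Hmgb2 (62.1% against 50.9%) in the authors' deposited table. In control cluster 9, led by Wfdc18 and Krt18, the remaining entries had a higher log ratio but a smaller share. They were H2afz (35.9% against 92.1%), Hmgb2 (20.4% against 52.8%) and Stmn1 (14.8% against 50.4%). How often the signs were opposite over all genes is not given here. The cause of the opposite signs was not tested.

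Control cluster 10, led by Gap43 and Apod and holding 1.15% of the cells, had 5 members listed, all higher. Prc1, which bundles microtubules at cell division, was found in 39.7% of its cells against 15.4% of the others in the authors' deposited table, Stmn1 in 63.8% against 49.2%, and Pcna in 50% against 46.3%. Stmn1 is also known from neural cells. No member was listed in control cluster 11, led by Ccl6 and Pf4, or in control cluster 14, led by Fabp4 and Ctla2a.

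**Figure D3:**
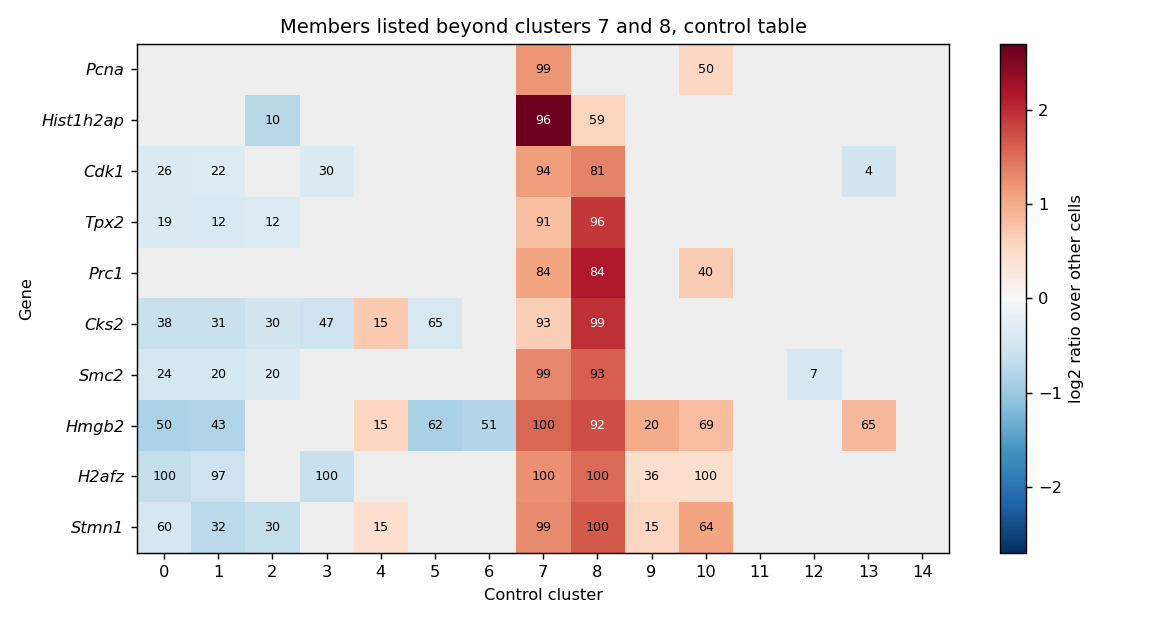
Log2 ratio over the other cells (colour) and share of cells with a count (number, %) for the 10 members listed in control clusters beyond 7 and 8 (x axis, cluster number), with grey for entries not listed. Clusters 0 to 3 are blue where listed, and Hmgb2 in cluster 4 is red at 15% of cells.

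FGF2 cluster 9 combined both programmes. In the authors' deposited table, all 18 mitosis members were listed as higher there, in 58.9% to 94.2% of its cells, as were 9 of 11 replication members, in 53.3% to 76.1%. Mcm2 and Mcm5 were not listed in the FGF2 table. Top2a led the cluster with a log2 ratio of 2.33 (86.8% of its cells against 11.4% of the others), followed by Ube2c with 2.22 (83.7% against 6.2%). Cenpa was found in 87.3% against 19.7% and Prc1 in 85.0% against 6.4% in the authors' deposited table. As a set the replication members stood lower, with a median log2 ratio of 0.66 against 1.52 for the mitosis members. Among them were Rrm2 (67.6% against 5.1%), Hist1h2ap (53.3% against 3.5%) and Mcm3 (53.8% against 7.9%). Pclaf (76.1% against 2.5%) did not stand lower than most mitosis members by much, with a log2 ratio of 1.48, above that of Mki67 (1.18).

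Beyond cluster 9, members had only 3 entries in the FGF2 table. Stmn1 was lower in FGF2 cluster 7, led by Igfbp5 and Il11 (17.3% against 35.7% in the authors' deposited table). Hmgb2 was higher in cluster 14, led by S100a9 and S100a8 (61.5% against 31.4%). H2afz was higher in cluster 15, led by the mast cell protease genes Cma1 and Mcpt4, at a share of 96.9% against 94.9%. No member was listed in any of the other 13 FGF2 clusters.

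Over the whole library, cell cycle genes were found in fewer FGF2 cells than control cells. Of 30 members with a share in both libraries, 20 were lower in the FGF2 library by a size rule of 1.5-fold, 1 was higher and 9 lay within it. Among all 2323 genes compared, 15.2% were lower and 7.58% higher. Rare genes were lower more often: 50% of genes with a mean share under 10%, 42.9% from 10 to 25% and 14% from 25 to 75%. With genes of any cell cycle list left out these were 36.4%, 38.7% and 13.4%. Of the members 8, 12 and 9 fell in these 3 ranges. The median log2 ratio was -0.80 over the members and -0.08 over all genes.

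Of the 9 replication members compared, 7 were lower, and all 9 had the smaller share in the FGF2 library. Hist1h2ap was found in 23.2% of control and 5.70% of FGF2 cells, a 4.07-fold difference and the widest of the members. Pclaf was found in 16.5% and 5.75% (2.87-fold), Hist1h1b in 17.4% and 7.67% (2.27-fold) and Mcm3 in 20.4% and 9.93% (2.05-fold). Pcna (46.3% and 29.6%, 1.57-fold) was just past the 1.5-fold limit and called lower, and Atad2 (35.6% and 24.9%, 1.43-fold) and Mcm6 (31.9% and 22.7%, 1.41-fold) just missed it.

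Of the 18 mitosis members, 12 were lower and 1 higher. Ccna2, the A-type cyclin, was found in 11% of control and 4.16% of FGF2 cells (2.64-fold). Ccnb1 was found in 10.8% and 4.46%, Aurkb in 9.53% and 4.13%, and Mki67 in 12.2% and 5.77%. Birc5, the survivin of the passenger complex, was found in 15.1% and 8.55%, and Nusap1, a spindle protein, in 9.43% and 4.60%. Prc1 (1.59-fold) was the nearest lower member to the rule, and Smc2 (1.48-fold) and Top2a (1.47-fold) lay nearest on its other side. Among the chromatin and cytoskeleton genes, Hmgb2 was lower (51.9% and 31.6%), Stmn1 lay within the rule (49.4% and 34.6%), and so did H2afz (90.5% and 94.9%), whose share in the control left no room for a higher call.

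Cenpa was the 1 member higher in the FGF2 library, at 15.1% of control and 22.7% of FGF2 cells. Cenpf was at 13.2% and 15.1% and Cks2 at 43.1% and 45.5%, both within the rule, whereas the kinetochore motor gene Cenpe was lower (12.1% and 6.22%). Outside the cycling clusters, Cenpf was found in 5.66% of control and 12.0% of FGF2 cells, Cks2 in 37.1% and 43.2%, and Cenpa in at most 11.5% and in 19.7%.

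The count of 20 uses listed shares alone. Once clusters are left out, the count depends on the shares taken for genes unlisted in them. Control clusters 4 and 9 and FGF2 clusters 10 and 13, with low median shares of their listed genes, held 13.4% of control and 4.92% of FGF2 cells. Without them and with unlisted genes at the share of the other cells, 21 members were lower. Without them, and with unlisted shares at the bounds that least favour a lower call (the low bound in the control, the high bound in the FGF2 library), 8 of 30 members were lower: Pclaf, Hist1h2ap, Mki67, Ccna2, Nusap1, Aurkb, Hmgb2 and Stmn1. At these bounds, which favour a higher call, Cenpa and Cenpf were higher. Shares of all genes in these 2 settings are not given here, so the counts of 21 and 8 cannot be set against them.

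**Figure D4:**
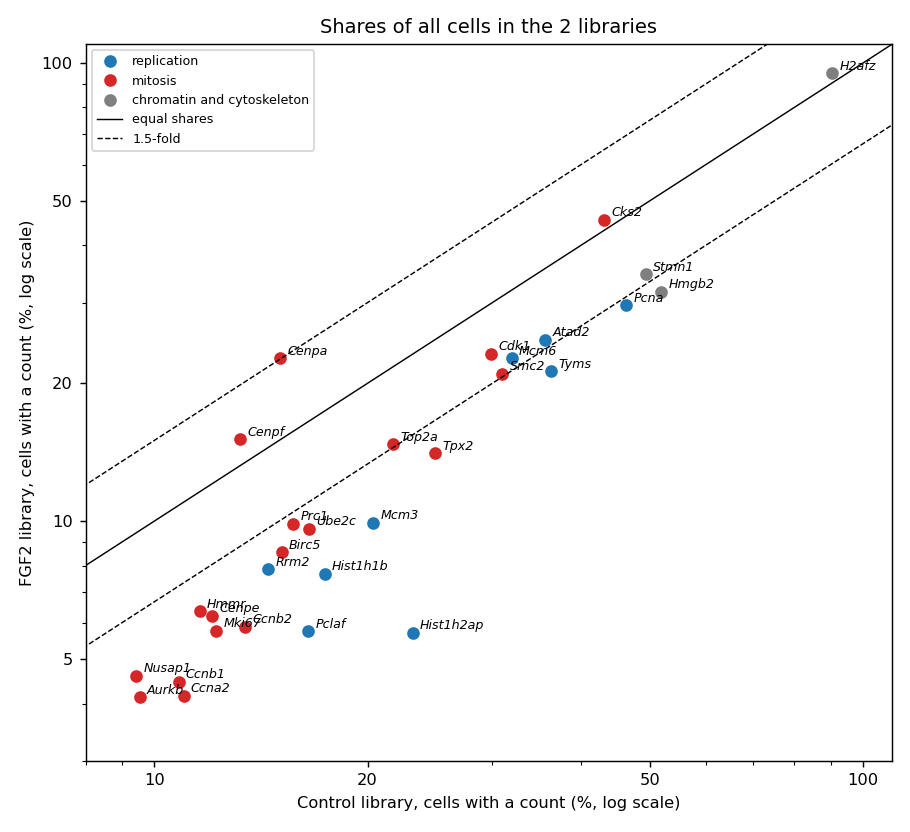
Share of all cells with a count in the control library (x axis, %, log scale) and the FGF2 library (y axis, %, log scale) for the 30 members in both tables, with lines of equal shares and of 1.5-fold. Of the points, 20 lie below the lower dashed line, and Cenpa, at 15.1% and 22.7%, lies above the upper one.

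The library shares were split into cells inside and outside the cycling clusters for the 23 members listed in all 3 of them. Inside, the median was 88.1% in control clusters 7 and 8 together and 81.9% in FGF2 cluster 9, and 0 of 23 members were lower by 1.5-fold, where 2.59% of all 116 genes listed in the 3 clusters were. The 116 genes include the 23 members, and all were kept for being listed in these clusters. Inside shares of the members were at least 63.1% in the control and 53.3% in the FGF2 library. Hist1h2ap (78.7% and 53.3%) and Tyms (90.8% and 63.2%) came nearest to a 1.5-fold drop without reaching it. The count of 0 thus does not show that the cycling cells were alike. The smaller share was in the FGF2 cluster for 19 of 23 members and for 105 of the 116 genes. Mki67 was found in 90.2% and 74.3% of the cycling cells, Ccna2 in 83.6% and 70.5%, and Pclaf in 93.8% and 76.1%. Hmmr (82.2% and 83.5%), Prc1 (83.8% and 85.0%), Nusap1 (71.3% and 73.9%) and Cenpf (79.9% and 81.9%) were found in more of the FGF2 cluster. All 5 replication members of the 23 had the smaller share in the FGF2 cluster, with medians of 79.3% and 63.2%.

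The cycling clusters themselves held 10.2% of control and 4.42% of FGF2 cells. Mki67-positive cells of the cycling clusters made up 9.20% of all control cells and 3.28% of all FGF2 cells, a difference of 5.92 points out of 6.47 for the whole libraries. Over the 16 members that were lower and listed in all 3 clusters, the cycling clusters held a median of 76.0% of the difference, from 28.1% for Hmgb2 to 91.5% for Mki67. The median was 82.7% over 10 mitosis members and 49.0% over 5 replication members, with Hist1h2ap at 32.5%. The 16 were picked from these data as lower, so these medians describe them alone and test nothing. Left out were Top2a, Cdk1, Smc2 and Stmn1, with smaller shares in the FGF2 library, and Cenpf, Cks2 and H2afz, with larger ones. For the latter, control minus FGF2 was -1.85, -2.36 and -4.39 points over the libraries and 4.53, 5.63 and 5.82 points within the cycling clusters. Outside the cycling clusters, Hist1h2ap was found in 16.9% of control and 3.50% of FGF2 cells, and Tyms in 30.1% and 19.3%. There, 9 of 23 members were lower by 1.5-fold, where 34.5% of the 116 genes, these members included, were. The libraries were clustered separately, so the edge of a cycling cluster may not lie at the same place in both.

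**Figure D5:**
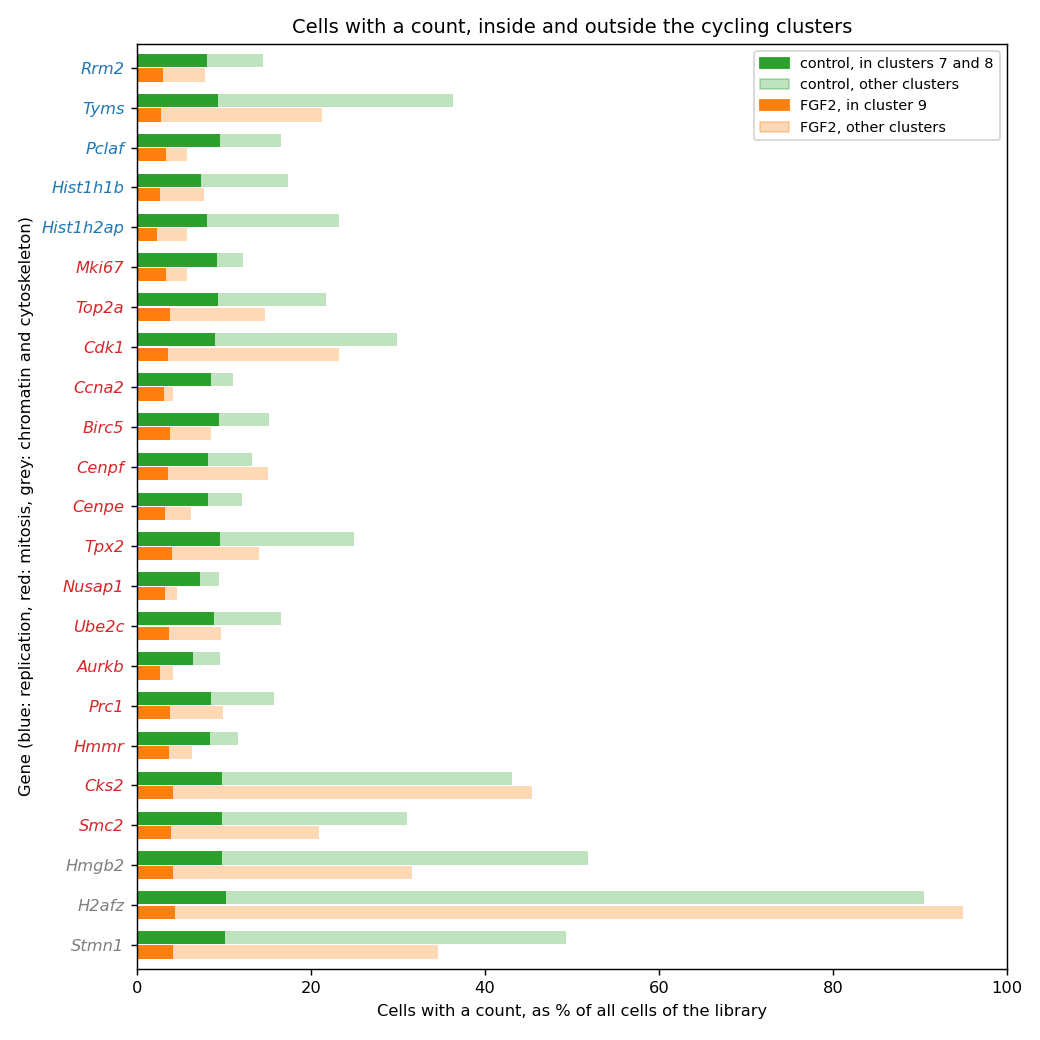
Cells with a count of each of the 23 members listed in all 3 cycling clusters, as a percentage of all cells of the library (x axis), in the control (green) and FGF2 (orange) library. Dark bars are cells of the cycling clusters and pale bars all other cells: for Mki67 the dark bars are 9.20% and 3.28%.

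The concentration of positive cells in the cycling clusters varied widely among members. In the control, clusters 7 and 8 held 77.5% of the Ccna2-positive cells, 77.1% of the Nusap1-positive and 75.2% of the Mki67-positive ones, but 42.7% of those with Top2a, 25.5% of those with Tyms and 11.3% of those with H2afz. In the FGF2 library, cluster 9 held 74.8% of the Ccna2-positive cells, 70.9% of the Nusap1-positive and 56.9% of the Mki67-positive ones, and 24.0% of those with Cenpf. The part of free RNA in the outside shares was not tested.

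In the integrated table, 31 members were listed as higher in integrated cluster 5, where 15.3% of the genes of that table were. It held 6.59% of the cells, and the parts of both libraries weighted by captured cells come to 6.34%. Outside it, 10 members had 35 further entries, 26 lower and 9 higher by log ratio, and in 16 the share pointed the opposite way. How often this was so over all genes is not given here. In integrated cluster 2, led by Acta2 and Tagln, Top2a had a lower log ratio but a larger share (59.8% against 24.9%). Values of the integrated table are batch-integrated, so differences in it are not of expression. Of 30 members with a share in all 3 tables, 24 had a larger share over all integrated cells than in either library, with a median of 29.8% against 17.0% and 9.90%. Cenpf, for example, was above 0 in 39.2% of the integrated cells, against 13.2% and 15.1% of the library cells, and Hmmr in 29.4%, against 11.6% and 6.36%. The same over all genes is not given here, so these larger shares cannot be called particular to the members.

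Other genes of the cycle, from lists chosen by function, were listed in the same clusters. Of 57 further replication genes, 40 were listed as higher in control cluster 7, 5 in control cluster 8 and 25 in FGF2 cluster 9, none lower. Of 101 further mitosis genes, 50, 76 and 68 were, none lower. Hells, a chromatin remodeller (log2 ratio 1.21), and Lig1, which joins DNA ends (1.10), were among those with the largest ratio in control cluster 7, and Pttg1, the securin gene (1.62), and Cdc20, which activates cyclin destruction (1.54), in control cluster 8. Between the libraries, 11 of 25 further replication genes and 51 of 68 further mitosis genes compared were lower in the FGF2 library, with 0 higher, where 15.2% of all genes compared were lower. Among genes in no cell cycle list, 36.4% of those with a mean share under 10%, 38.7% of those from 10 to 25% and 13.4% of those from 25 to 75% were lower. Plk1, a mitotic kinase, was found in 9.16% of control and 4.05% of FGF2 cells, and Kif11, a spindle motor, in 8.50% and 2.69%.

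Among genes that start or brake the cycle, 4 of 4 G1 cyclin and kinase genes and 8 of 10 brake genes compared lay within the rule, as did 1793 of all 2323 genes. Ccnd2, Ccnd3, Cdk4, Btg1, Cdkn1c, Gas1 and Phlda3 were in 68.5% or more of the control cells. That left no room for a higher call, so these counts say little about such genes. Ccnd1, the D-type cyclin induced by growth factors, was found in 53.4% of control and 67.1% of FGF2 cells, and was listed as higher in FGF2 cluster 9 (88.2% against 66.1%). Of the brake genes, Cdkn2b, an inhibitor of CDK4 and CDK6, was higher in the FGF2 library (56.1% and 84.4%), and Gadd45b, a stress gene, was lower (61.2% and 24.1%). Cdkn1a, the p21 inhibitor, was at 58.0% and 84.9%, within the rule. Cdkn1c, the p57 inhibitor, had lower log2 ratios in control clusters 7 and 8 (-0.74 and -0.64) although it was found in 94.1% and 92.5% of their cells. This was not particular to the cycling clusters. Cdkn1c was also lower in control cluster 3 (-0.77, in 94.3% of cells) and in clusters 6, 9, 10, 11, 13 and 14, and higher in clusters 0, 1 and 2. Cdkn2c and Cdkn2d, further inhibitors of CDK4 and CDK6, were listed as higher in control cluster 8, in 50.8% of its cells against 11.3% and in 65.4% against 34.5%, and Cdkn2d also in control cluster 7 (69.9% against 34.1%).

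Genes in none of these lists that ranked next in the cycling clusters included tubulin. In the authors' deposited table, the 5 with the largest log ratio in control cluster 7 were Fam111a, Slfn9, Fbxo5, Tuba1b and Tubb5. Fbxo5, an inhibitor of cyclin destruction, was found in 84.2% of cluster 7 against 6.1% of the other cells. In control cluster 8 they were Arl6ip1, Ube2s, Nucks1, H2afv and Tuba1b, and in FGF2 cluster 9 Tuba1b, Arl6ip1, Ccdc34, Ube2s and Selenoh. Ube2s, an enzyme that extends ubiquitin chains on mitotic proteins, was found in 99.2% of control cluster 8 against 75.7% of the other cells and in 95.1% of FGF2 cluster 9 against 75%.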

How the data were processed

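Single cells of 1 control and 1 FGF2 library were captured by the 10x Chromium droplet method, per the labels' protocols. Cell Ranger 4.0 and mm10 are named in the submitters' processing notes, and the filters on cells, doublet treatment, clustering and the statistical test are not stated there. Per the file headers, the authors' 3 deposited tables set every cluster against the remaining cells. The log ratios deposited by the authors were read as natural log and are printed as log2. The natural log base was checked on genes with no positive cell in several clusters, whose average in the other cells then agreed to a median coefficient of variation of 0.00169% (control, 8 genes) and 0.0030% (FGF2, 5 genes), against 0.0488% and 0.0334% with base 2. The averages carry an offset of 1, so ratios understate low genes. The shares of cells (pct.1 and pct.2 in the headers) are fractions deposited by the authors, printed as percent. The p-values deposited by the authors rest on single cells and are not printed. Entries had a log ratio of at least 0.25 (natural log) and a share of 25.1% or more on the larger side (integrated, 25.3%).

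A gene's share of a library is its share beyond a cluster, increased by the cluster's part multiplied by the gap between both listed shares. Cluster parts were estimated by least squares (Python 3.11.15, numpy 2.4.6, pandas 2.3.3) over genes with entries for 2 or more clusters (2077 control, 1490 FGF2). They summed to 100.04% and 99.95%. On simulated tables with rounding as the only error, parts were recovered within 0.0145 (control, 4419 genes) and 0.0428 points (FGF2, 3058 genes) and shares within 0.0529 and 0.0585 points. Where a member was unlisted in 1 control cycling cluster, its inside share was left out. The size rule was 1.5-fold. Members, lists and cycling clusters were chosen with earlier results of these data known. All 32 members were named, other lists by counts and a few examples, and per cycling cluster the 5 leading genes outside all lists. A planned search of protein sequences was not run.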

Additional observations from a re-analysis of the deposited data

How the results depend on the processing

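The count of 20 members lower in the FGF2 library stayed at 20 or 21 without the clusters of low listed shares, without the clusters not stromal by their markers, and with parts estimated from genes listed in at least 3 clusters or by least absolute deviations, and was 25 with a ratio of odds. Where clusters were left out, a gene unlisted in them is left as it was by construction, and only 4 members were listed in the clusters of low listed shares. The other estimates of the parts gave 10.19% and 10.21% of control cells in the cycling clusters, against 10.20%. The count thus had little room to move in these settings. For the settings above, a 2-fold rule and the bounds below, shares of all genes are not given here. Their counts thus cannot be set against all genes. The count was 10 with a size rule of 2-fold. Without the clusters of low listed shares and with unlisted shares at the bounds that least favour a lower call, an alternative chosen after seeing the data, it was 8. Among the 23 members listed in all 3 cycling clusters it was 9 outside them and 0 inside, where fewer genes were compared and the inside shares were high by selection. With the clusters of low listed shares out of the denominator, the cycling clusters held 11.8% of the control and 4.64% of the FGF2 cells. With the log ratio read as log2, the median fold of members was 1.66 in place of 2.08 (control cluster 7), 2.20 in place of 3.11 (control cluster 8), 1.90 in place of 2.52 (FGF2 cluster 9) and 1.78 in place of 2.29 (integrated cluster 5). An alternative split of the members gave 14 mitosis and 8 replication members on their side. Its set sizes are not given here, so these counts cannot be set against the main ones. No paired analysis was possible because each group has 1 library. The depth per cell is unknown and limits what a share of rare genes can show.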

Other observations

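Of the 68 further mitosis genes compared, 7 were in a larger share of FGF2 than of control cells, all within the size rule, and 4 of them are named after their values were seen. Pttg1, the securin gene, was found in 18.6% of control and 26.3% of FGF2 cells, and Cdc25b, a phosphatase that activates CDK1, in 8.65% and 12.5%. Ckap2, which binds the spindle, was found in 14.3% and 16.1%, and Ncaph, a subunit of condensin, in 11.4% and 13.0%. The linker histones Hist1h1c and Hist1h1e went the other way, from 37.1% to 14.3% and from 38.0% to 12.7%, and were lower by the size rule.

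Ccnd1 varied among FGF2 clusters with no listed member, of which 3 are named after their values were seen. In the authors' deposited table it was found in 92.3% of FGF2 cluster 4, led by Acta2 and Tagln, in 86.1% of cluster 0, led by Nptx1 and Cdkn2a, and in 41.6% of cluster 5, led by Igfbp5 and Cd24a. Cdkn2a, an inhibitor of CDK4 and CDK6, was listed at 86.2% of the cells of FGF2 cluster 0 against 56.7% of the others, and Cdkn2b at 98.4% against 81.7%.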
